A study of Mus musculus with 6 samples.

Results

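Il9, the gene of the cytokine interleukin-9, was 1 of the 17369 genes of the expression table and was followed by name through all 27258 cells of 6 single-cell libraries. It was chosen by name and not by a cut on its values, though with earlier results of these data known. Each cell was placed in 1 of 4 classes by its Il9 value (0, 1 to 9, 10 to 99, and 100 or more), and the classes were compared between libraries, genotypes and the 7 cell clusters that the authors had deposited.

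IL-9 is a secreted growth factor that acts through the shared cytokine receptor gamma chain and is known for effects on mast cells, airway epithelium and anti-tumour immunity. Among CD4 T cells it is the hallmark of T helper 9 (Th9) cells, which arise when TGF-beta and IL-4 act together on an activated naive cell. The Il9 promoter is known to receive STAT6 from IL-4, STAT5 from IL-2, SMAD proteins from TGF-beta, and PU.1, IRF4, BATF, NFAT and NF-kB from activation and differentiation.

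Naive CD4 T cells from mouse spleen were kept for 48 h under Th9 conditions, namely 20 ng/ml IL-4, 3 ng/ml of human TGF-beta and 20 ug/ml of an antibody to interferon-gamma, and CD4-positive cells were then purified on beads. There were 3 samples labelled wild-type control and 3 labelled Cblb-/-, which lack CBL-B, a ubiquitin ligase that restrains T cell activation. Both groups had the same culture, and RNA was counted with 10x Genomics 3' chemistry. The labels do not say which part of Cblb was deleted, or whether mice or cultures were separate within a genotype. The p-values therefore reflect only how much these samples varied, and that variation may be technical.

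The letters A, B, C stand for the wild-type libraries and D, E, F for the Cblb-/- (knockout) libraries, which held 3423 to 5666 cells at median raw depths of 35573 to 39628 unique molecular identifiers (UMIs) per cell, and 76 cell barcodes occurred in 2 libraries. Values are depth-corrected counts. Summed over cells and scaled to a total of 1000000 they give parts per 1000000 (ppm), and log2 differences are on the log2(ppm + 1) scale. Cblb stood at 32.6, 31.1 and 30.9 ppm in A, B and C and at 18.4, 15 and 18.0 ppm in D, E and F, a fall of 0.85 on the log2 scale (SE 0.08, limma adjusted p = 0.000816, where 24.4% of 8475 genes were called in either direction). Knockout libraries still gave Cblb tags, which a 3' method counts wherever the 3' end of the transcript remains. The 9 CD4 T cell markers summed to 2289 to 2554 ppm. The markers of mast cells, another known source of IL-9, summed to 1.01 to 4.60 ppm over the 8 of 11 found in the table, and the sums did not separate the genotypes. Ms4a2 and Fcer1a were at 0 in libraries A and B, while Mcpt8 and Cpa3 were at 1.58 and 1.23 ppm in C. Hdc was at 0.87 to 0.95 ppm in wild type and 0.41 to 0.60 ppm in knockout.

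Il9 (ENSMUSG00000021538) lies on chromosome 13, 56479277 to 56482246, on the minus strand of mm10, and has 5 exons. The 250 bases before its RefSeq start (GRCm38.p6, chr13:56482258-56482507, minus strand) are shown because several of the factor families named above have a short motif in it. The capitals mark only 2 of these, an AP-1 motif, the site class used by BATF with JUN proteins, and a GAGGAA core of the kind bound by PU.1.

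Il9 promoter: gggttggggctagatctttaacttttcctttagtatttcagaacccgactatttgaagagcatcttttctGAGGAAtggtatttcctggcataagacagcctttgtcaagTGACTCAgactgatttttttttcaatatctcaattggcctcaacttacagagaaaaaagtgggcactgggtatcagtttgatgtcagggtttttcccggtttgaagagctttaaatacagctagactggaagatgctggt

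Motifs were searched on both strands. TGANTCA (AP-1) matched once, beginning 140 bases before the start, and is in 6.75% of 32851 promoter windows of the same length. GAGGAA matched once, 180 bases before the start (23.3% of windows), and ends a STAT6 motif, TTC and GAA with any 4 bases between them (5.85% of windows). The NF-kB motif, GGG and CC with any 5 bases between them, matched at 2 overlapping places, 1 on each strand (45.8% of windows). The NFAT core GGAAA matched at 3 places (55.6%) and the SMAD core CAGAC at 1 (42.2%), where it overlaps the AP-1 match by 2 bases. No match was found for the IRF repeat (GAAA, any 2 bases, GAAA), for the STAT5 spacing (TTC and GAA with 3 bases between) or for the GATA motif AGATAA. The palindrome GTCTAGAC, bound by SMAD proteins, was not found either. A match is a run of letters and does not show that a factor binds there.

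Over all cells, Il9 was 271, 166 and 245 ppm in wild-type libraries A, B and C. It was 915, 461 and 788 ppm in knockout libraries D, E and F. Every knockout library was above every wild-type library, and E was the lowest of the knockouts. The means were 227 ± 54.5 ppm and 721 ± 234 ppm (SD, n = 3 each), and the fitted difference on the log2 scale was 1.63 (SE 0.26, adjusted p = 0.0059 by limma). In the same test 11.0% of 8475 genes were called higher in knockout. Some markers of other cells were also higher in every knockout than in every wild-type library. Those of type 2 innate lymphoid cells, a further known source of IL-9, summed to 15.7 to 16.7 ppm in wild type and 25.3 to 33.7 ppm in knockout over the 3 of 4 in the table. Nearly all of this was Rora, which T cells also express, while Il1rl1 was at 0.01 to 0.35 ppm with overlapping genotypes and Il17rb at 0.24 to 0.36 ppm in wild type and 0.10 to 0.24 ppm in knockout. The 4 of 5 CD8 T and NK cell markers summed to 21.1 to 24.5 and 29.8 to 31.6 ppm, mostly Nkg7 and Cd8b1, with Cd8a at most at 0.26 ppm and Klrb1c at 0 in D and F. Macrophage and monocyte markers separated likewise (1.26 to 1.28 against 1.37 to 1.60 ppm). So did dendritic cell markers (0.09 to 0.16 against 0.19 to 0.29 ppm). T helper 1 markers did so too (1.03 to 2.24 against 3.88 to 17.1 ppm), and the 1 erythroid marker found, at most at 0.03 ppm. Regulatory T cell and T helper 17 markers overlapped between genotypes. The part of any such cells in the Il9 difference was not tested.

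The Il9 classes moved as a whole between the genotypes. Cells with a corrected Il9 count of 0, called cells without Il9 below, made up 53.8%, 58.5% and 49.1% of libraries A, B and C and 26.7%, 36.5% and 13.1% of D, E and F. Cells with 1 to 9 made up 30.9% to 36.6% in wild type and 44.4% to 60.6% in knockout, and cells with 10 to 99 made up 8.86% to 12.4% and 14.0% to 18.6%. Cells with 100 or more were 2.84%, 1.56% and 2.31% in A, B and C and 10.3%, 5.15% and 8.68% in D, E and F. None of the 4 classes overlapped between genotypes. Each gave p = 0.1 in an exact two-sided permutation test, the smallest value that 3 against 3 libraries allow. The split between 0 and 1 to 9 also went with raw depth. In every library the median depth was lower at 1 to 9 (33867 to 38696 UMIs) than at 0 (36930 to 44185 UMIs). A corrected count of 0 does not by itself show that the transcript was absent, nor one of 1 to 9 that it was present. The part of the depth correction in this split was not tested beyond the following depth window. Among cells within 20% of the median raw depth, those at 0 were 53.9% to 63.0% in wild type and 11.0% to 38.3% in knockout.

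**Figure D1:**
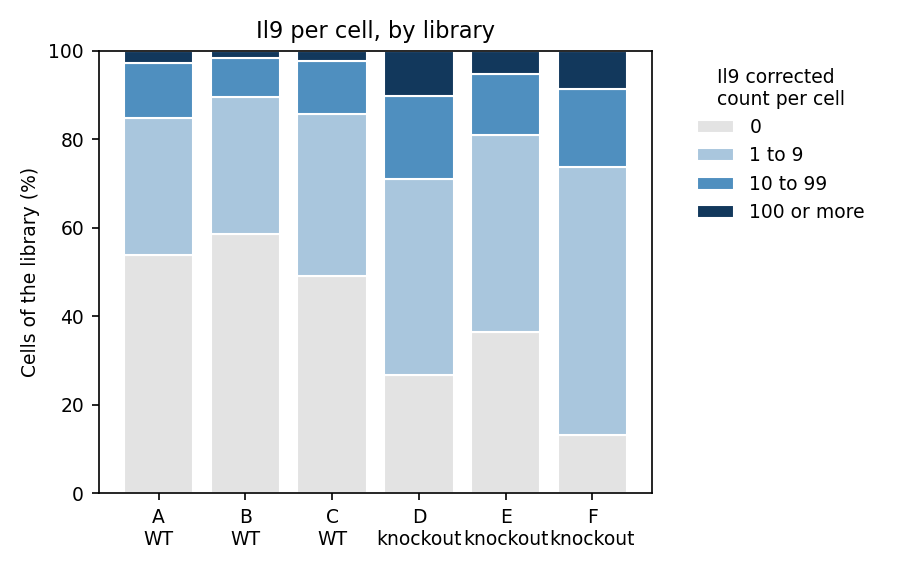
Share of cells (%) in each Il9 class, stacked to 100% for each library; darker blue stands for more Il9 per cell, and libraries A to C are wild type and D to F knockout. The darkest class, 100 or more, is 1.56% to 2.84% in wild-type and 5.15% to 10.3% in knockout libraries, and the grey class, 0, is at least 49.1% in wild-type (WT) and at most 36.5% in knockout libraries.

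A small share of cells held most of the Il9. The 10% of cells with the highest values carried 85.7%, 88.6% and 85.4% of all Il9 in A, B and C and 74.8%, 82.6% and 75.3% in D, E and F. Another way to see this is that 50% of the Il9 sat in 2.0% to 2.64% of wild-type and 3.12% to 4.44% of knockout cells. The highest single cell reached 413 to 940 in wild-type and 1230 to 1719 in knockout libraries. Among cells with at least 10, the mean per cell was 62.8, 54.3 and 60.0 in A, B and C and 117, 86.0 and 108 in D, E and F. The knockout libraries thus had more cells at 10 or above (19.1% to 28.9%, against 10.4% to 15.3%) and also more Il9 in each of them.

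Low Il9 values moved in the same direction. Cells at 0 to 9 averaged 0.84, 0.76 and 0.93 in A, B and C and 1.46, 1.28 and 2.28 in D, E and F. These low means and the library totals were both higher in knockout, although F had the highest low mean and D the highest total. Droplets also catch free transcripts from other cells. No cell type known to lack Il9 was present in numbers that could measure this, so the part of free RNA in the class of 1 to 9 was not tested.

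By cluster, Il9 spanned more than 2 orders of magnitude. Clusters keep the authors' numbers. For orientation only, the genes that led each over the others were Tmem176a and Tmem176b in cluster 0, Ikzf4 and Socs2 in cluster 1, Il9 and Batf3 in cluster 2, the chemokine genes Ccl4 and Ccl3 in cluster 3, the chemokine gene Ccl20 in cluster 4, and Akr1c18, a steroid-metabolising enzyme, in cluster 5. All genes, Il9 included, were available to the clustering, so no cluster is tested against another.

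In wild type the order of Il9 levels was cluster 4 (10.0 to 21.1 ppm), 0 (15.1 to 22.6), 3 (42.1 to 57.0), 1 (81.6 to 112), 5 (208 to 363) and 2 (2706 to 3129). The first pair overlapped and the later steps did not. In knockout the order was the same, with clusters 4 (23.0 to 57.9 ppm), 0 (35.3 to 77.4) and 3 (51.5 to 101) overlapping, and clusters 1 (173 to 258), 5 (1160 to 1734) and 2 (3537 to 4389) separate. Cluster 6 held only 24 cells, at median raw depths of 27389 UMIs in wild type and 24759 in knockout. Every library median was higher (35573 or more), and the part of depth in this cluster was not tested. Il9 of at least 1 was found in 5 of its 6 wild-type cells (exact Clopper-Pearson 95% interval 35.9% to 99.6%) and 16 of its 18 knockout cells (65.3% to 98.6%), intervals that cover counting error only. At 10 or more there were 0 of 6, for which the same interval reaches up to 45.9%, and the floor of 3 counts up to 50%, and 1 of 18.

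**Figure D2:**
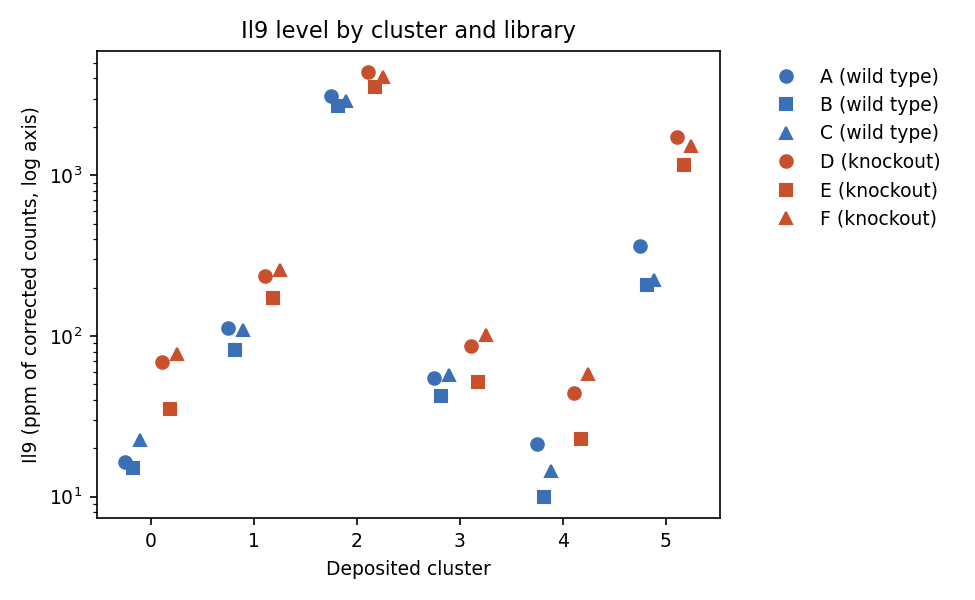
Il9 in ppm of corrected counts (log axis) for each deposited cluster with at least 50 cells in every library; 1 point per library, blue for wild type and orange for knockout. Knockout points lie above wild-type points in every cluster shown but cluster 3, where library E (51.5 ppm) falls among the wild-type libraries (42.1 to 57.0 ppm).

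The difference between genotypes was present inside clusters as well as over all cells, but its size was not the same in each. It was largest in cluster 5, with 363, 208 and 224 ppm in A, B and C and 1734, 1160 and 1517 ppm in D, E and F. That is 2.49 on the log2 scale (SE 0.19, limma adjusted p = 6.17e-05, where 4.90% of 8426 genes were called higher in knockout). Cluster 0 differed by 1.63 (SE 0.27, adjusted p = 0.00637, 9.06% called higher), cluster 4 by 1.36 (SE 0.27, adjusted p = 0.00444, 5.33%), and cluster 1 by 1.13 (SE 0.16, adjusted p = 0.00228, 9.22%). In none of these 4 clusters did the genotypes overlap.

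Cluster 2, where Il9 is highest, showed the smallest difference, 3129, 2706 and 2877 ppm against 4389, 3537 and 4090 ppm, or 0.46 on the log2 scale (SE 0.08, adjusted p = 0.00266, 8.39% called higher). Median raw depth in this cluster was 42596 to 43895 UMIs in wild type and 37669 to 40920 in knockout, and its part in the difference was not tested. Cluster 3 did not pass, at 54.6, 42.1 and 57.0 ppm against 86.9, 51.5 and 101 ppm, or 0.58 on the log2 scale (SE 0.21, adjusted p = 0.125, 4.54% called higher). Without library E it was 0.87 and passed (adjusted p = 0.00159), so that library decides the call, and in cells within 20% of the median raw depth it was 1.03 without passing (adjusted p = 0.0606). The inequality between clusters was itself tested with a genotype-by-cluster term over 36 library-cluster sums. It gave F = 25.2 and an adjusted p of 3.64e-07, in a test that called 11.1% of 8488 genes. In cells within 20% of the median raw depth the adjusted p was 0.0121. Membership of cluster 2 follows Il9 itself, as given below, which limits the difference that this cluster can show. The part of that cut in the genotype-by-cluster term was not tested.

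Cluster 5 combined a wide spread of Il9 with the large genotype difference. Cells at 0 were 47.9%, 57.7% and 49.7% of the cluster in A, B and C and 14.1%, 27.0% and 10.5% in D, E and F. Cells at 100 or more were 3.21%, 2.39% and 2.45% against 20.5%, 10.8% and 15.3%. No other cluster but 2 had cells of both classes from 10 upwards in every library. Cluster 5 held 6.28% to 7.18% of wild-type and 2.28% to 2.61% of knockout cells.

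Cluster 2 was close to a cut on Il9 itself. Every cell in it had at least 11, and no cell of cluster 1 had more than 51. Of cells with 20 to 29, 6.58% were in cluster 2 and 71.1% in cluster 1. From 40 to 51 the shares were 74.8% and 18.5%, and of the 1398 cells at 100 or more 94.6% were in cluster 2, 5.29% in cluster 5 and 0 in cluster 1. Since membership follows Il9, the small genotype difference within cluster 2 and the larger share of knockout cells in it (10.1% to 18.0%, against 3.86% to 5.87%) cannot be told apart from 1 shift of Il9 across that cut.

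**Figure D3:**
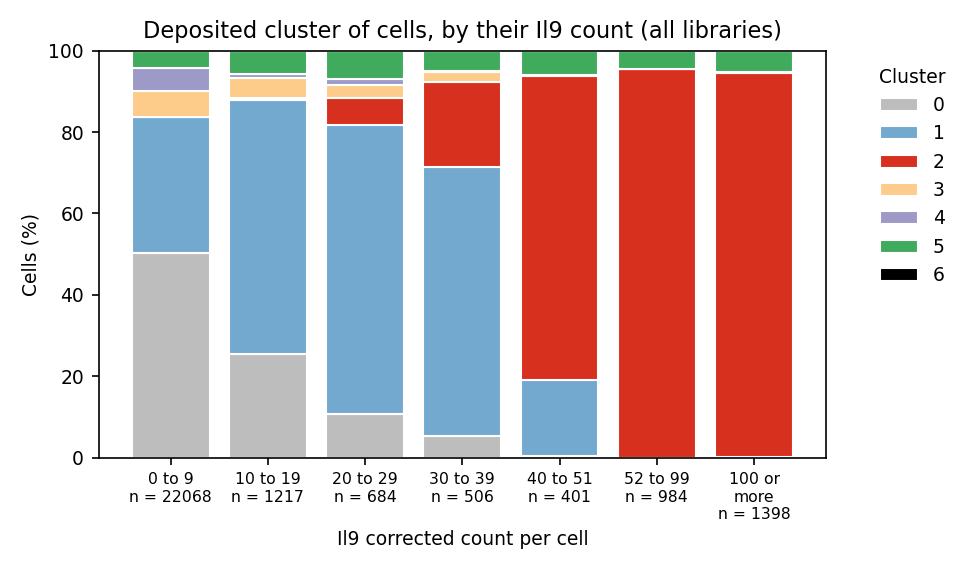
Share of cells (%) in each deposited cluster, for cells of all libraries grouped by their Il9 corrected count, with the number of cells under each bar. Cluster 2 (red) goes from 0.33% of cells at 10 to 19 to 74.8% at 40 to 51, and replaces cluster 1 (blue).

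With every library given the same mix of clusters, Il9 was 376, 315 and 346 ppm in A, B and C and 629, 481 and 602 ppm in D, E and F. The groups did not overlap, and the means were 346 ± 30.4 and 571 ± 79.2 ppm (SD, n = 3 each), a 1.65-fold difference (exact permutation p = 0.1, the smallest possible). The fold over all cells as measured was 3.17. The standardised value holds cluster 2 fixed, and with it part of Il9 itself.

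Genes that go with Il9 were then sought within each library. Across the cells of a library, Spearman's rho with Il9 had a median over libraries of -0.01 for the 8474 genes examined. It was above 0.2 for 26 genes and below -0.2 for 26, and above 0.3 for only 4. These are descriptions over 3423 to 5666 cells that share a library, a culture and a depth correction, and they carry no p.

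The 4 genes were Socs2 (median rho 0.44, 0.36 to 0.48 over libraries), a STAT5-induced feedback inhibitor; Batf3 (0.44, 0.32 to 0.50), an AP-1 family factor; Il2ra (0.40, 0.35 to 0.43), the alpha chain of the IL-2 receptor; and Lta (0.40, 0.33 to 0.49), the cytokine lymphotoxin alpha. Next came Rragd, Ikzf4, Chchd10, Ctla2a, Ftl1, Arid5a, Bcl2 and Vim, at 0.25 to 0.28. With each cell's raw depth held fixed the first 4 were at 0.40 to 0.46. At the other end stood Il2 (-0.29, -0.32 to -0.24), Rgs10 (-0.28), a G-protein regulator, Lrmp (-0.25), Tbc1d4 (-0.25), Trat1 (-0.25), Slamf6 (-0.25), Hvcn1 (-0.24) and Ubald2 (-0.24).

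Within clusters, which also narrow the range of Il9, rho was smaller. The median rho over 36 library-cluster groups was 0.24 for Lta, 0.23 for Batf3, 0.23 for Socs2 and 0.20 for Il2ra, positive in all 36 groups for each of the 4. Ftl1, Ctla2a, Vim and Arid5a followed at 0.13 to 0.14, and Lrmp, Tbc1d4, Rgs10 and Slamf6 were lowest at -0.14 to -0.13. In cluster 5, which holds all 4 Il9 classes in every library, Batf3 reached 0.55, Lta 0.46 and Socs2 0.43. In cluster 2 alone Batf3 kept 0.21 and Lta 0.18, while Socs2 stood at 0.11 and Il2ra at 0.04.

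Batf3 was also the gene whose level was most like that of Il9 over the 36 library-cluster sums (Pearson's r = 0.94 on log2 values, with 6 sums from each library). Vim, the intermediate filament vimentin, followed at 0.92, then Serpina3g, a serine protease inhibitor (0.89), Arid5a, an RNA-binding protein (0.89), and Chd7, a chromatin remodeller (0.88).

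Batf3 was higher at each step of the Il9 classes in all 6 libraries. In library A it stood at 25.9, 57.3, 164 and 287 ppm from the lowest class to the highest, and in library F at 43.9, 59.6, 200 and 314 ppm. The span over libraries was 18.6 to 43.9 ppm in cells without Il9 and 241 to 314 ppm in cells at 100 or more, so these classes did not overlap. Lta likewise went from 92.8 to 129 ppm up to 500 to 948 ppm. Il2ra was higher at each step in all 6 libraries, from 222 to 368 ppm up to 442 to 646 ppm. Socs2 did so in 5 of 6, and from the class of 10 to 99 (157 to 222 ppm) to the highest (180 to 240 ppm) the libraries overlapped.

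**Figure D4:**
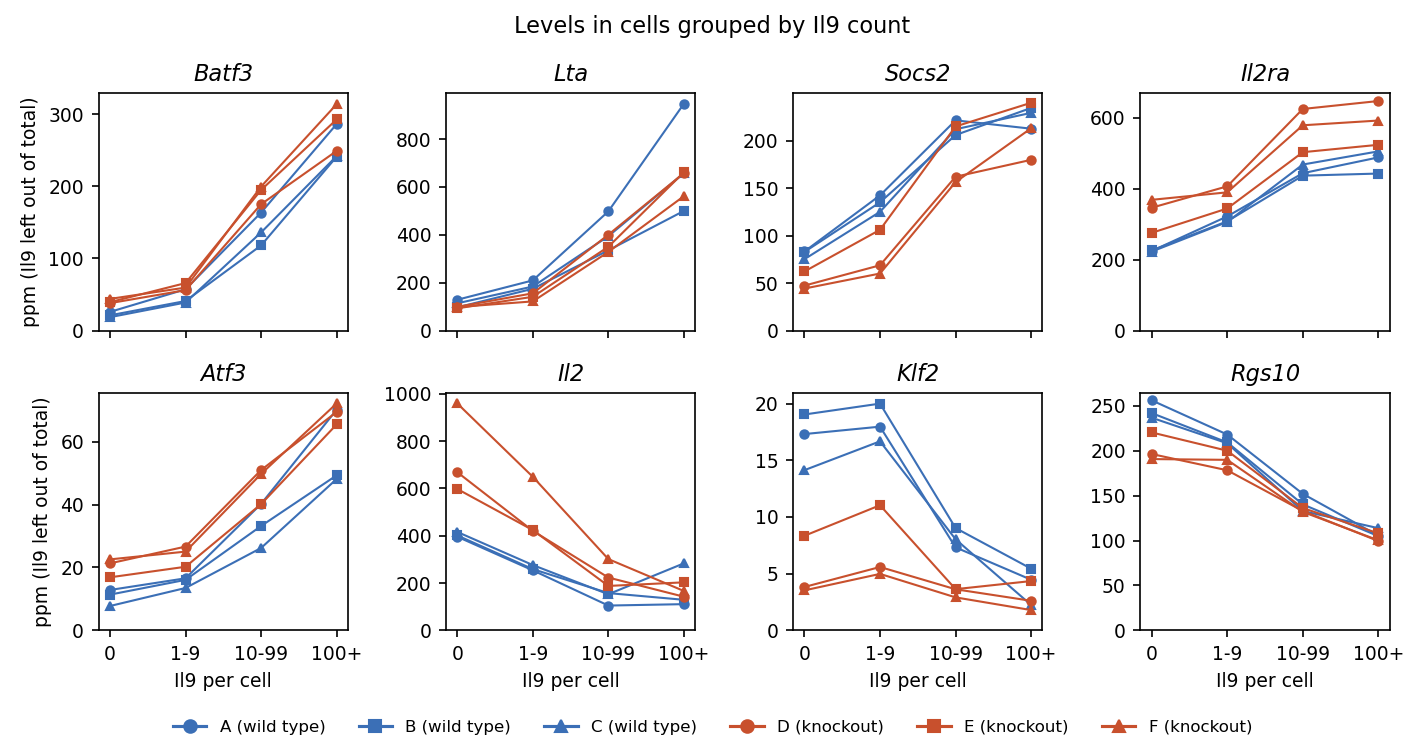
Level in ppm (Il9 left out of the total) of 8 genes in cells grouped by Il9 count, 1 line per library, blue for wild type and orange for knockout. Batf3 climbs from 18.6 to 43.9 ppm in cells without Il9 up to 241 to 314 ppm in cells at 100 or more, while Rgs10 declines from 191 to 256 ppm down to 99.4 to 114 ppm.

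Il2 went the other way. Cells without Il9 had 396, 401 and 416 ppm of Il2 in A, B and C and 668, 597 and 959 ppm in D, E and F, and cells with 10 to 99 had 105, 157 and 153 ppm and 223, 188 and 301 ppm. Cells at 100 or more had 111, 129 and 283 ppm and 142, 203 and 166 ppm, so Il2 was lower at each step in only 3 of 6 libraries, and A, C and E were higher again in the last class. Over all cells Il2 was nonetheless higher in knockout (log2 0.57, SE 0.11, limma adjusted p = 0.0119), as Il9 was. IL-2 is the main growth factor of activated T cells and signals through the receptor that Il2ra completes.

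Other cytokine transcripts differed in how far they shared cells with Il9. Il4 was detected in 1.0% ± 0.21 of wild-type cells without Il9 and in 16.6% ± 0.48 of those at 100 or more, and in knockout in 1.53% ± 0.86 and 13.2% ± 8.97 (SD, n = 3 libraries each). Il13, a type 2 cytokine, was detected in 0.84% ± 0.18 and 4.46% ± 1.31 of these classes in wild type. In knockout it was detected in 22.4% ± 12.6 and 31.1% ± 13.5, so the genotypes differed far more than the Il9 classes did. Ccl20 was less frequent in the highest class, at 16.4% ± 1.45 and 7.41% ± 0.72 in wild type and 34.0% ± 3.43 and 16.2% ± 5.46 in knockout. These shares were not tested.

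A test with libraries as replicates was possible where cells with and without Il9 occur in the same cluster. Cells with at least 10 and cells with 0 were compared within each library, and cluster 1 was the only cluster with 20 or more of both in every library. Its high cells have 10 to 51, and they numbered 197 to 389 per library against 76 to 974 at 0. Of 8464 genes 1152 were higher with Il9 (13.6%) and 1218 lower (14.4%) by limma at an adjusted p under 0.05, yet only 7 and 6 of them changed by 2-fold or more. In wild type the high cells had a higher median raw depth (41166 to 43245 UMIs) than the cells at 0 (36809 to 39097). In knockout the high cells were shallower in D (37874 against 39657) and E (35802 against 36341) and deeper in F (38871 against 37968), and the part of depth in the result was not tested beyond the depth window given with the alternatives.

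Batf3 led the rises. It stood at 156, 109 and 123 ppm in the high cells of A, B and C against 44.8, 33.9 and 30.4 ppm in the cells at 0. In D, E and F it was 179, 186 and 176 ppm against 75.1, 70.2 and 88.9 ppm. High cells were above cells at 0 in each library, by 1.51 on the log2 scale averaged over genotypes (SE 0.05, limma adjusted p = 4.31e-14). Lta rose by 1.40 (0.99 to 1.66 over libraries), Serpina3g by 1.21 (0.13 to 1.74), and Sgk1, a kinase gene known to be salt- and glucocorticoid-responsive, by 1.09 (0.70 to 1.5). Ctla2a, a cysteine protease inhibitor (1.02), Alpk2 (1.0), Gatm, an enzyme of creatine synthesis (0.98), Atf3, a stress-induced AP-1 family factor (0.96), Mt1, a metallothionein (0.95), and Il1a, the cytokine interleukin-1 alpha (0.94), completed the list of the 10 largest.

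Klf2, a factor that maintains quiescence and recirculation of naive T cells, fell the most. It was 9.36, 7.23 and 8.32 ppm in the high cells of A, B and C against 30.3, 30.4 and 23.0 ppm in those at 0, and 3.87, 3.52 and 2.90 ppm against 7.23, 22.2 and 12.1 ppm in D, E and F. The log2 change was -1.63 (SE 0.13, limma adjusted p = 3.35e-08) and was negative in each library (-2.36 to -0.76). Over the whole of a library, in contrast, its rho with Il9 was only -0.03. Nkg7, a cytotoxic granule protein, changed by -1.30, Klrb1f, a lectin-like receptor, by -1.20, Filip1l by -1.10, and the membrane proteins Ms4a4b and Ms4a6b by -1.03 and -1.02. Serpina3g, Ctla2a, Klrb1f and the Ms4a genes belong to families of near copies, among which the authors' counting could have split reads.

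**Figure D5:**
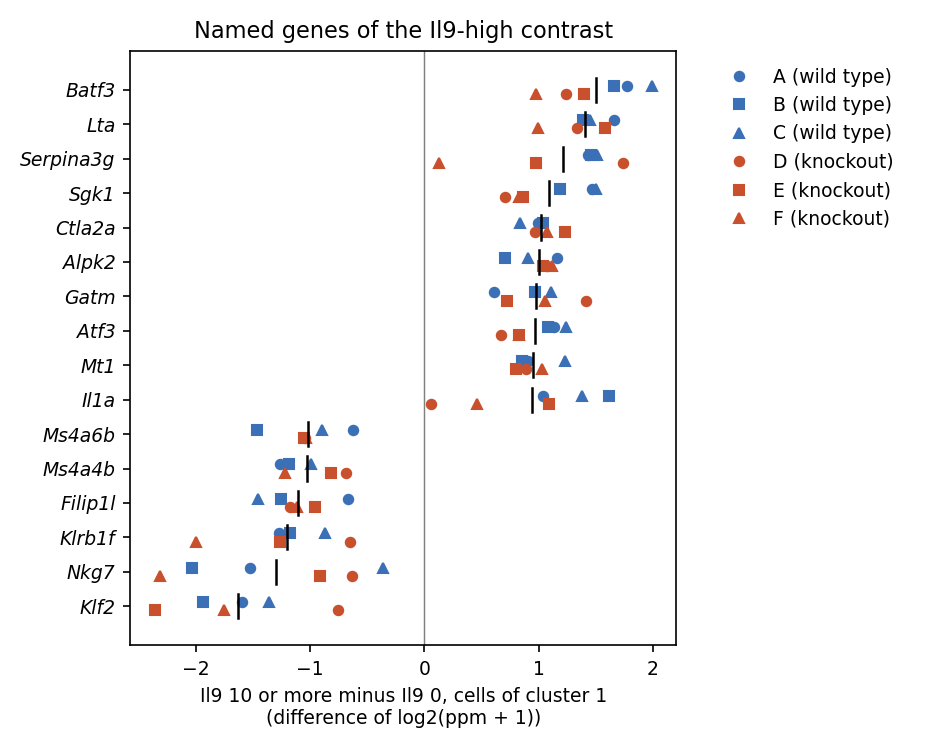
Difference of log2(ppm + 1) between cells with Il9 of at least 10 and cells with 0, in cluster 1, for the 10 largest rises and 6 largest falls that had the same sign in all 6 libraries. Each point is 1 library (blue wild type, orange knockout) and the vertical bar is the fitted mean, from 1.51 for Batf3 to -1.63 for Klf2.

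Genes of known routes to Il9 were read as lists, beside a median log2 change of -0.01 over all 8464 genes and the 28.0% of them called in either direction. The lists were chosen with earlier results of these data known, so their counts are descriptions and not a test of a route. All 8 tested members of the IL-2 and STAT5 list rose (median 0.27): Il2ra (0.39), Il2rb (0.16), the STAT5 targets Cish (0.08), Socs2 (0.46), Socs3 (0.56) and Osm (0.46), and Ccnd2 (0.07) and Bcl2l1 (0.07). Gzmb was not tested in this contrast. Of 10 tested members of the IL-4 and STAT6 list 4 rose and none fell, among them the receptor Il4ra (0.24), the feedback inhibitor Socs1 (0.17) and Gfi1 (0.25). Of 9 tested members of the TGF-beta list Tgfb1 rose (0.09), Tgif1 fell (-0.17) and the other 7 did not pass.

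Among 32 tested factors that act on Il9 or on Th9 cells, 9 rose, 3 fell and 20 did not pass (median 0.02). Beside Batf3 the rises included Irf8 (0.38), Hif1a (0.18), Stat5a (0.15), Rbpj (0.14), the effector of Notch, and Batf (0.13), and the falls were Tcf7 (-0.30), Ets1 (-0.19) and Runx1 (-0.16). The Irf8 value is an average over genotypes, between which its contrast differed, as given below. Irf4, needed for IL-9 in Th9 cells, was at -0.01 (adjusted p = 0.81), Gata3 at 0.07 (0.0563) and Stat6 at -0.02 (0.698). Spi1, which encodes PU.1, was at 0.01 to 0.23 ppm in whole libraries, below the filter of 5 ppm, and was not tested.

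Among T cell cytokines 6 of 17 were tested, and Il13 (0.66), Il1a, Penk, the precursor of enkephalins (0.51), Tnf (0.49) and Lif (0.48) rose while Il2 fell (-0.59). The Il13 change was not of one sign, from -0.07 to 1.77 over libraries. Of 3 tested chemokines Ccl4 fell (-0.29), and Ccl20 (0.21) and Ccl22 (-0.28) did not pass. The immediate early genes of T cell receptor signalling were divided: 5 of 17 rose, such as Egr2 (0.23) and Nr4a3 (0.22), and 5 fell, such as Nr4a1 (-0.35) and Jun (-0.32). Of 8 costimulatory receptors Tnfrsf9 rose (0.17) and Cd28 (-0.62) and Cd27 (-0.72) fell. The inhibitory receptor list had 4 of 6 lower: the receptor Lag3 (-0.54), the ligand Cd200 (-0.25), the enzyme Nt5e (-0.26) and the factor Tox (-0.63). Its receptors Pdcd1 and Ctla4 did not pass, and Havcr2 and Tigit were not tested. The naive and memory list had Ccr7 (-0.59), Klf2 and Tcf7 lower and Lef1 (0.14) higher of 5.

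Cell cycle genes separated by phase. Of 12 genes of G2 and mitosis 11 were lower in the high cells (median -0.22), among them Mki67 (-0.35), Cenpf (-0.32) and Aurkb (-0.31), with Ccnb2 not passing. Of 12 S phase genes 6 were higher (median 0.08), Ung (0.57) and Mcm2 (0.21) the most, and Tyms was lower. Glycolysis and hypoxia genes were higher in 10 of 12 (median 0.17), with Hk2, the first enzyme of glycolysis, at 0.53, and Ndrg1 lower. Of 14 secretory pathway genes 8 were higher (median 0.08), such as the chaperone Hsp90b1 (0.23) and Sdf2l1 (0.23), and Spcs1 was lower.

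The genotypes differed in this contrast for 164 of the 8464 genes (1.94%). The 5 with the smallest p were Il12a, Irf8, Exoc2, Tpi1 and Dapl1. Il12a, a subunit of IL-12 and IL-35, was 54.8, 66.3 and 39.9 ppm in the high cells of A, B and C against 40.2, 51.9 and 29.1 ppm at 0, and 89.3, 81.8 and 64.6 ppm against 179, 177 and 91.3 ppm in D, E and F. It was thus higher with Il9 in each wild-type library and lower in each knockout library, a difference of -1.27 (adjusted p = 3.9e-06). Irf8, an interferon regulatory factor, was 283, 244 and 365 ppm against 176, 168 and 208 ppm in wild type and 159, 155 and 182 ppm against 163, 144 and 162 ppm in knockout (difference -0.59, adjusted p = 3.91e-05). Exoc2 differed by 0.67, the glycolytic enzyme Tpi1 by 0.30 and Dapl1 by 0.89, each with a negative mean in wild type and a positive one in knockout. These signs hold for cluster 1 only. Over all cells of a library, Exoc2 and Dapl1 were lower at each step of the Il9 classes in all 6 libraries, knockout included. Only 13 genes passed in cells within 20% of the median raw depth and 0 without the filter on low values. Leaving out A, B or C gave 77, 56 or 62 genes, and leaving out D, E or F gave 142, 172 or 233.

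No cluster held enough cells at 0 and at 100 or more, so a comparison at the high end was added after the data were seen: cells at 100 or more against cells at 10 to 99, all in cluster 2. Of 8435 genes 69 were higher (0.818%) and 62 lower (0.735%), or 1.55% in either direction. Batf3 was again higher in each library, at 287, 239 and 235 ppm against 203, 152 and 175 ppm in A, B and C and 248, 289 and 313 ppm against 197, 226 and 237 ppm in D, E and F (log2 0.44, SE 0.03, limma adjusted p = 3.87e-06). The others among the 10 largest rises were Cd40, a TNF receptor family member (0.62), Lta (0.49), Alpk2 (0.42), Serpina3g (0.40), Atf3 (0.40), Tnip2 (0.39), Lmna, a nuclear lamin (0.38), Abtb2 (0.36) and Ier3 (0.35). The falls were Gbp2, an interferon-induced GTPase (-0.58), Slamf6 (-0.50), Trat1 (-0.46), the chemokine receptor Ccr6 (-0.45), Ppp3cc, a calcineurin subunit (-0.37), and Cd96 (-0.37).

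Socs2 (0.12, adjusted p = 0.217) and Il2ra (0.01, adjusted p = 0.859) did not pass at this level of Il9. Of the 131 genes called, 104 were also called between the cells with at least 10 and with 0 in cluster 1, which are other cells of the same libraries. That is 79.4% of the shorter list and 4.39% of the longer one, and 100 of the 104 had the same direction. For comparison, 28.0% of all 8464 genes were called in the cluster 1 contrast, and 8350 genes were tested in both. The exceptions, named after their values were seen, were Il12a, Arf4, mt-Co2 and mt-Co3. The counts rested on single libraries. Without A, B, C, D, E or F, in that order, 45, 203, 30, 17, 15 and 16 genes were higher and 39, 125, 23, 12, 14 and 11 lower. Of the 16 named genes Batf3, Lta, Atf3, Lmna and Slamf6 passed without any 1 of the libraries, and the other 11 kept their direction but lost the call without at least 1.

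Only 1 gene, Penk, differed between genotypes in that contrast (0.0119% of genes). It was 24.5, 7.81 and 11.2 ppm against 5.13, 2.46 and 2.32 ppm in A, B and C and 23.5, 20.5 and 22.9 ppm against 28.1, 31.2 and 22.0 ppm in D, E and F, a difference of -2.02 (limma adjusted p = 0.00114). Over all clusters, wild-type libraries held only 67 to 111 cells at 100 or more. Penk was detected in 2.99% to 5.41% of these and in 3.51% to 3.94% of wild-type cells at 10 to 99. Values of at least 10 occurred in 1.49% to 2.70% and 0.37% to 1.44%. The wild-type levels thus rest on few cells, and those at 10 to 99 in B and C were below 5 ppm.

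Along the chromosome, 1 of the 10 annotated genes nearest to Il9 was in the table. Fbxl21, which starts 40226 bases beyond Il9, was at 0.20 to 0.27 ppm in wild-type and 0.31 to 0.53 ppm in knockout libraries, too low to be tested.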

How the data were processed

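Single-cell RNA-seq by 10x Genomics 3' chemistry was made from 6 samples of cells kept under Th9 conditions. The submitters' processing notes name Cell Ranger 3.0.2, Seurat 3.0.0 and mm10, without settings. Per the file headers the expression values are scores, namely counts that the authors corrected for depth with sctransform, so no count model was fitted. The deposited table also gives each cell's raw UMI count, used for depth, and its percent of mitochondrial UMIs. Cells were filtered before deposit (at least 15006 UMIs, at most 15.2% mitochondrial). No doublet caller was run, and doublets were not treated.

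Libraries carry a sequencing index and a genotype, so they have letters and no replicate number. Corrected counts were summed per library, cluster or Il9 class and scaled to ppm, without Il9 when Il9 chose the cells. limma 3.58.1 (R 4.3.3) was run over all genes averaging 5 ppm or more on log2(ppm + 1), a scale that understates changes of low genes, with a trended prior, two-sided, Benjamini-Hochberg at 0.05. Library shares were compared by exact permutation (scipy 1.17.1). Scripts were tested on simulated data. Coordinates came from GENCODE M21 and promoters from RefSeq. Il9 and Cblb were always named. Other names were the 12 highest and 8 lowest correlations within libraries, the 8 highest and 4 lowest within clusters, the 10 largest rises and 6 largest falls of each contrast with 1 sign in all 6 libraries, the 5 most similar patterns, the 5 smallest p of the genotype difference, and list members; genes without a proper name, ribosomal and mitochondrial genes, antigen-receptor segments and genes of the Y chromosome were left out. Members and lists were chosen with earlier results of these data known. Other pseudocounts, filters, scalings, depth windows, classes and omitted libraries were tried. The B cell marker list is not reported here.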

Additional observations from a re-analysis of the deposited data

Results flagged for a closer look

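The genotype difference of Il9 was not equal between clusters, from 0.46 on the log2 scale in cluster 2 to 2.49 in cluster 5 (adjusted p of the genotype-by-cluster term 3.64e-07, limma). Membership of cluster 2 follows Il9 itself, and the part of that cut in the term was not tested. The contrast between cells with at least 10 and cells with 0 in cluster 1 differed between genotypes for 5 named genes. The log2 differences (knockout minus wild type) were -1.27 for Il12a, -0.59 for Irf8, 0.67 for Exoc2, 0.30 for Tpi1 and 0.89 for Dapl1. The contrast between cells at 100 or more and at 10 to 99 in cluster 2 differed for Penk by -2.02, with few wild-type cells holding Penk. Each was past the adjusted threshold in the test of the difference itself.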

How the results depend on the processing

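The Il9 difference over all cells and the cluster-by-genotype term kept direction and call under all 11 alternatives each, and the difference within clusters did in 65 of 66; in cluster 3 it was 0.39 to 0.87 with 1 library left out, passing without library E. The Il9 classes and the standardised difference kept their direction in 35 and 8 alternatives. The calls between high and zero cells in cluster 1 went to 665 higher within the depth window, to 294 higher and 616 lower with high cells from 1, which also let in clusters 0, 3 and 4 beside cluster 1, so that the cut and the clusters cannot be told apart, and to 2247 and 2995 without matching by cluster; high cells from 100 gave no value, since no cluster held enough of both. Of 221 alternatives for its 16 named genes 218 kept the call; Gatm turned to -0.055 with high cells from 1 in those 4 clusters, and Alpk2 and Klf2 did not pass there. The genotype difference of that contrast was called for 0 genes without the filter on low values (1192 of 8464 had an unadjusted p under 0.05 with it, by limma), 13 in the depth window, 12 with high cells from 1 in those 4 clusters, 910 unmatched, and 56 to 233 with 1 library left out. Within cluster 2 the calls were 1 higher and 2 lower without the filter, 9 and 7 in the depth window, and 15 to 203 and 11 to 125 with 1 library left out; its 16 named genes kept the call in 105 of 176 alternatives. For the 20 named correlations 178 of 220 alternatives were scored as the same and 42 as moved. The rho of Socs2 was 0.20 in cluster 1 alone and 0.11 in cluster 2 alone. The cause of these shifts was not tested. No paired analysis was possible because the libraries of the table carry no replicate number. With 3 libraries a genotype the exact permutation test cannot go below 0.1.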
